A study of Ambystoma mexicanum with 7 samples.

Results

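When an axolotl limb is amputated, wound epidermis closes the stump and a mass of progenitor cells, the blastema, grows beneath it. This work describes 15191 stretches of chromatin that were called accessible in blastema and lay at least 100 kb from any accessible site called in limb tissue. They are the blastema peaks on chromosome arms that were 500 bases or wider, that no limb peak overlapped, and whose nearest limb peak on the same sequence was at least 100 kb from their edge. They were 15191 of 168368 blastema peaks in all, of 163517 on arms, and of 43719 on arms with that width. They are called far sites below. Members were chosen on the limb lists, so their lack of a limb call is a rule and not a finding, and every comparison here is a description with no test.

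The assay was ATAC-seq, in which the Tn5 transposase tags DNA where it is open. The blastema group held 2 samples of blastema together with wound epidermis. The systemically activated group held 2 samples of limb tissue, and the intact group 3 samples of limb tissue. All 7 samples were wild type Ambystoma mexicanum, and each library was made from 10000 live cells sorted for 4C DNA content, which picks dividing cells. For both kinds of limb the series design gives day 14 from amputation, and for blastema it gives no day. Whether samples came from separate animals is not stated, and no gene deletion or agent is named in any group. Amputation of 1 limb is known to bring cells elsewhere in the body back into the cell cycle, which is what systemic activation refers to.

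In general, open chromatin away from genes often marks enhancers, stretches that bind transcription factors and act on promoters over long distances. Tissue-restricted sites are typically of this distal kind, whereas promoters of housekeeping genes tend to be open in most cells. The axolotl genome is very large and rich in repeats, so regulatory sites can lie far apart. No genome or annotation of the build of the files was used here, so the genes, promoters, sequences and motifs at far sites were not analysed here.

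The data were 4 lists of peaks, 1 per group and 1 for all samples, with no value for any single sample. Depth differed strongly between the lists. The lowest background under any summit, a measure that grows as more reads are sequenced, was 2.49 fragments in blastema. It was 0.375 in systemically activated limb, while intact limb had 0.529, and all samples together had 4.22. The value of blastema was thus 6.65 times that of systemically activated limb and 4.72 times that of intact limb. These ratios rest on the lowest summit of each list. Fragments here are the units that the peak caller counted, and whether each was a whole sequenced fragment was not examined. The 5th percentile of backgrounds was 2.49 in blastema, 0.520 in systemically activated limb and 0.560 in intact limb, a smaller gap. In blastema this percentile matched the lowest value, whereas in both limb lists it lay above the lowest. It is thus not a like measure of depth across the lists. Cells were sorted in bulk, so fewer cells with an open site and a less open site in each cell cannot be told apart.

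Being far from a limb peak was the usual state of the genome, not a rare one. Of 26.7 Gb of arm length up to the last peak, 22.3 Gb, or 83.5%, lay at least 100 kb from a limb peak. Among blastema peaks of 500 bases or more, 55.1% had no limb overlap and 34.7% were far sites (95% exact binomial interval 34.3 to 35.2, counting error only). Of the wide peaks without a limb overlap, 63.1% were far sites, a smaller share than that of the arm length.

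Far sites thinned out steadily with distance. There were 68.1 far sites per 100 Mb of the far territory, whereas the wide blastema-only peaks nearer than 100 kb to a limb peak, called near sites below, numbered 202 per 100 Mb of theirs. Between 100 and 200 kb from a limb peak there were 4165 far sites, a density of 130 per 100 Mb. The density was 92.7 between 200 and 500 kb, 62.7 between 500 and 1000 kb and 38.2 between 1000 and 2000 kb. It was 18.7 between 2000 and 5000 kb, and 7.67 beyond 5000 kb, where 75 far sites lay. There was no step at 100 kb: the density was 155 between 50 and 100 kb.

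**Figure D1:**
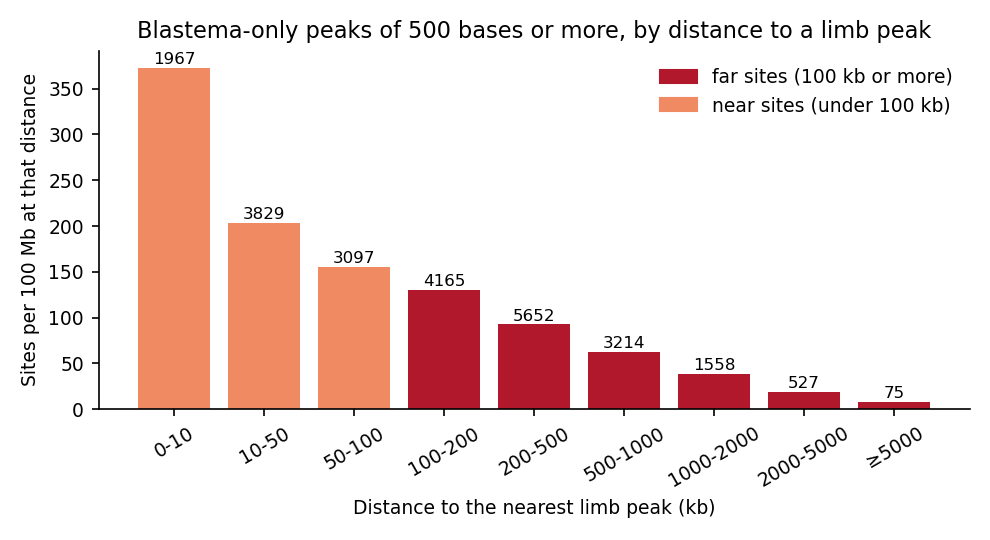
Bars show the number of blastema-only peaks of 500 bases or more per 100 Mb of arm length at that distance, by distance to the nearest limb peak in kb, and the number above each bar is the count of sites. The density falls across every bin, with 130 per 100 Mb at 100 to 200 kb and 7.67 beyond 5000 kb.

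Narrower blastema peaks thinned out less steeply. The share of blastema-only peaks that were 500 bases or wider was 18.8% at 100 to 200 kb, 15.4% at 500 to 1000 kb and 11.4% beyond 5000 kb. The median strength of the far sites themselves moved little with distance, though strong sites were fewer in the farthest bins. Median pileup, the number of fragments over the summit, was 27 at 100 to 200 kb and 23 beyond 5000 kb, and median fold over background was 3.92 and 3.90 at these distances. A fold of at least 5 was reached by 13.7% of sites at 100 to 200 kb, 11.2% at 2000 to 5000 kb and 6.67% of the 75 beyond 5000 kb. Across the 15191 far sites Spearman's rho with distance was 0.03 for fold, -0.10 for pileup and -0.01 for width.

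Far sites were moderate peaks by blastema standards. Their median width was 643 bases (quartiles 558 and 784, highest 2212), and 1246 of them, or 8.20%, were 1000 bases or wider. Median summit pileup was 26 fragments (quartiles 20 and 33), median background 5.80 fragments (4.10 and 7.94) and median fold 3.96 (3.47 and 4.55). The fold is the authors' value, the pileup plus 1 over the background plus 1. A fold of at least 5 was reached by 2014 far sites, or 13.3%, beside 9.53% of all blastema peaks on arms and 23.0% of those 500 bases or wider. The median −log10 q was 6.33 (quartiles 4.59 and 8.82), with 1.63 as the lowest value and 36.5 as the highest.

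Near sites resembled far sites in width and differed in surroundings. Far and near sites had the same median width, 643 bases. Median pileup was 26 in far sites and 30 in near sites, against 52 in the 19635 wide blastema peaks that a limb peak overlapped, called limb-shared sites below. Median background was 5.80 in far sites, 7.16 in near sites and 10.2 in limb-shared sites. Median fold was 3.96 in far sites and 3.71 in near sites, while limb-shared sites had 4.56. Limb-shared sites were also wider, with a median of 891 bases. The 77851 far blastema-only peaks narrower than 500 bases had a median pileup of 17 and a median fold of 3.52. A fold of at least 5 was reached by 11.3% of near sites, 35.9% of limb-shared sites and 3.76% of the narrow far peaks. Limb calls divided these sets, so the differences between them are no independent result.

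**Figure D2:**
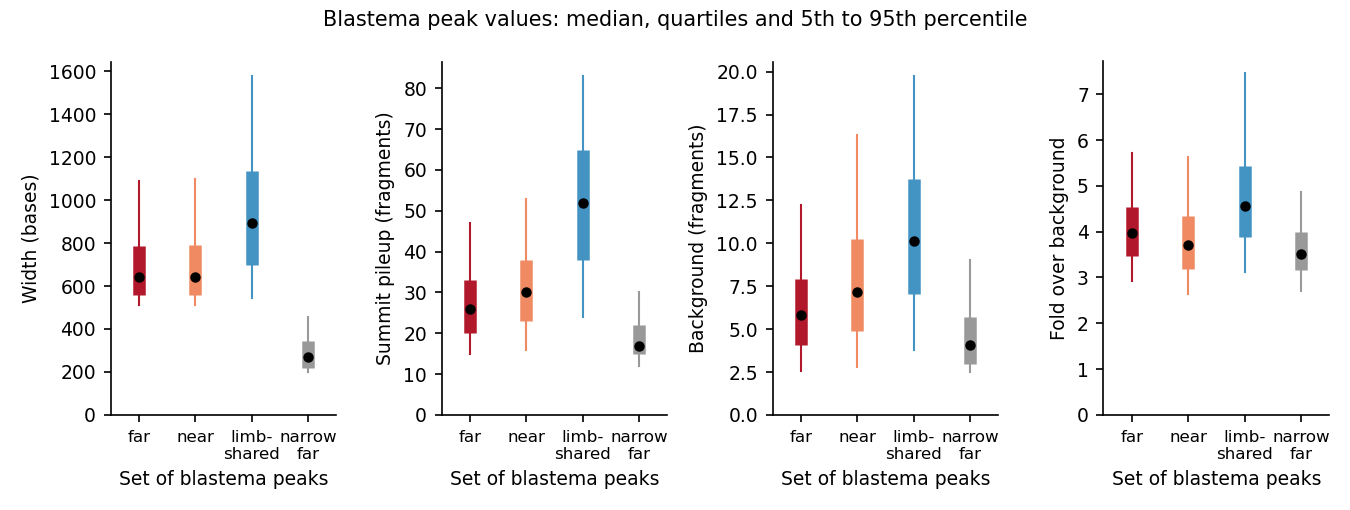
Median (black point), quartiles (thick bar) and 5th to 95th percentile (thin line) of width, summit pileup, background and fold for far sites, near sites, limb-shared sites and narrow far peaks of the blastema list. Far and near sites share a median width of 643 bases, while the median background is 5.80 fragments in far sites and 7.16 in near sites.

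A background well above the genome-wide level was less frequent at far sites than at near or limb-shared sites, and more frequent than at narrow far peaks. The background was at 5 or more times the lowest value at 4.59% of far sites (4.27 to 4.94), 14.3% of near sites (13.6 to 15.1) and 33.0% of limb-shared sites (32.3 to 33.7), but 0.953% of narrow far peaks. At the lowest value itself stood 4.11% of far sites, 2.98% of near sites, 1.19% of limb-shared sites and 11.7% of narrow far peaks. The background is estimated from reads of the same library around the site, so it is not independent of the pileup. Among far sites Spearman's rho between pileup and background was 0.85.

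Width and height went together within the far sites, though loosely. The 5825 far sites of 500 to under 600 bases had a median pileup of 23 and a median fold of 3.86. Far sites of 1000 to under 1500 bases, 1182 in number, had medians of 35 and 4.14. The 64 far sites of 1500 bases or more had a median pileup of 40 but a median fold of 4.06 over a median background of 9.73. Spearman's rho between width and pileup was 0.33, and between width and fold 0.14. Summits lay in the middle 50% of the interval in 69.2% of far sites, 68.6% of near sites and 81.5% of limb-shared sites.

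The 8 far sites of highest fold stood over low backgrounds of 2.49 to 3.76 fragments. The files divide most arms into numbered segments, and positions are 1-based within a segment, on a build that is not stated. The first was on arm 4p segment 2 from 188223364 to 188223873, with a pileup of 46 fragments over a background of 2.49, and a fold of 13.4. Its −log10 q, 36.5, was the highest of the far sites. The nearest limb peak was 1901064 bases away and the nearest other blastema peak 538971 bases away, so this strong site stood alone. On 7q segment 2 the second, at 303857219 to 303857965, had a pileup of 36 and a fold of 10.6, and its nearest limb peak was 594450 bases away. The third was on 1p segment 1 from 158002005 to 158002684, with a pileup of 36 and a fold of 10.6.

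The fourth was on 1p segment 0 from 191769569 to 191770423, with a pileup of 48 and a fold of 10.3. Another blastema peak lay 170 bases from it, the closest neighbour among these 8. On 7p segment 1 the site at 2127206 to 2127745 had a pileup of 34 and a fold of 10.0. On 1q segment 0 the site at 215321244 to 215321836 had 39 fragments and a fold of 10.0. On 4q segment 2 the site at 398746085 to 398746647 had 42 fragments and a fold of 9.95, and on 6p segment 0 the site at 30365906 to 30366740 had 35 and 9.73. Of the 8 sites, 5 had no other blastema peak within 50 kb of the summit. Their pileups, 34 to 48, lay above the upper quartile of the far sites, 33, and their backgrounds lay below the lower quartile, 4.10. Ranking on fold, a ratio of pileup to background, itself favours both.

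The 5 far sites farthest from a limb peak had folds of 3.68 to 4.73, beside a median of 3.96 over all far sites. Their pileups were 16 to 27, and the lowest, 16 at the farthest site, lay below the lower quartile of the far sites, 20. On 7q segment 0 the site from 355137696 to 355138325 was 21235423 bases from the nearest limb peak, with a pileup of 16 and a fold of 3.90. It lies in a stretch without limb peaks that runs to the last peak of its segment, and distances were not counted across segment ends. On 6q segment 1 the site from 114678132 to 114678641 was 16129086 bases away, with a pileup of 25 and a fold of 4.73. On 9q segment 1 the sites at 299424032 to 299424685 and 302317611 to 302318565 were 14.2 and 13.5 Mb away, with pileups of 24 and 25. On 2p segment 0 the site from 21410250 to 21411033 was 13393353 bases away, with a pileup of 27 and a fold of 3.68. In all, 2160 far sites, or 14.2%, had no limb peak within 1 Mb, and 75, or 0.494%, had none within 5 Mb.

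The 5 widest far sites were 2141 to 2212 bases long and lay over high backgrounds of 11.8 to 16.8 fragments. The widest, at 385839341 to 385841552 of 8q segment 1, had a pileup of 68 and a fold of 4.55. On 3q segment 2 the site at 233180136 to 233182344 had a pileup of 57 and a fold of 3.26. On 4q segment 2 the site at 290220489 to 290222696 had 46 fragments and a fold of 3.15. On 2q segment 2 the site at 47733 to 49919 had 54 and 4.06, and on 5q segment 0 the site at 108373151 to 108375291 had 42 and 3.37. Their folds, 3.15 to 4.55, were lower than those of the sites ranked by fold, while pileups were high in both groups. The 2q site began at base 47733 of its segment, so a limb peak within 100 kb on another segment would not have been counted. In all, 16 far sites lay within 100 kb of a sequence start or of the last peak of a sequence.

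Median folds were close on both sides of each limit of the rule, while the single sites named there differed. Of the blastema-only peaks at least 100 kb from a limb peak, 77 were 500 bases wide and 85 were 499 bases wide. Just inside the width limit, sites on 10p with starts at 222042771, 156182543 and 15793033 (segments 0, 1 and 1) had folds of 3.70, 3.93 and 4.07. Just outside, peaks on 10p segment 1 at 55169470 and 69033889 and on 10q segment 0 at 15518907 had folds of 3.02, 3.85 and 5.41. The members nearest to a limb peak were 100007, 100020 and 100029 bases away, on 2q segment 1 from 279713499, 13q from 122449084 and 6q segment 3 from 364490073, with pileups of 15, 22 and 41. The nearest excluded peaks were 99998, 99990 and 99931 bases away, on 1p segment 1 from 114600942, 11p from 212680968 and 8p segment 1 from 70238892, with pileups of 34, 37 and 31. Median fold was 3.83 over the 548 wide sites at 100 to 110 kb and 3.89 over the 529 at 90 to 100 kb. By width, it was 3.86 over the 3339 sites of 500 to under 550 bases, with a median pileup of 23. Over the 4470 of 450 to under 500 bases it was 3.76, with a median pileup of 21.

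The all-sample list gives a further reading at these places, though it includes the blastema reads. An all-sample peak overlapped 15183 of 15191 far sites, or 99.9% (99.9 to 100.0), and 8 had none. The share was 99.9% in near sites, 100% in limb-shared sites and 92.9% in narrow far peaks. Because of the shared reads the overlap is no independent support. An all-sample summit lay within 150 bases of the blastema summit at 11877 far sites, or 78.2%, and the values below are of these sites. An all-sample pileup at or above that of blastema follows from the shared reads, so the size of the difference is given here and not its direction.

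The median ratio of all-sample to blastema pileup was 1.36 at far sites (quartiles 1.27 and 1.48), 1.36 at near sites (1.28 and 1.47) and 1.40 at limb-shared sites (1.33 and 1.50). The genome-wide backgrounds had a ratio of 1.69, which 4.51% of far sites, 4.21% of near sites and 7.15% of limb-shared sites reached. Most sites of each set, limb-shared sites included, thus lay below 1.69. That reference is uncertain, because the lowest all-sample background exceeded the sum of those of the group lists. All sets were also chosen on blastema peaks. Whether far sites held proportionally less beyond blastema than the genome at large was therefore not tested. The pileup ratio fell with the blastema pileup, so the sets were also compared within bands of blastema pileup. At blastema pileups of 20 to 29 the median ratio was 1.39 at far sites, 1.41 at near sites and 1.62 at limb-shared sites. At pileups of 40 to 59 these were 1.29, 1.31 and 1.40. Far and near sites were close in each band, and limb-shared sites, which were chosen on a limb call, were higher.

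**Figure D3:**
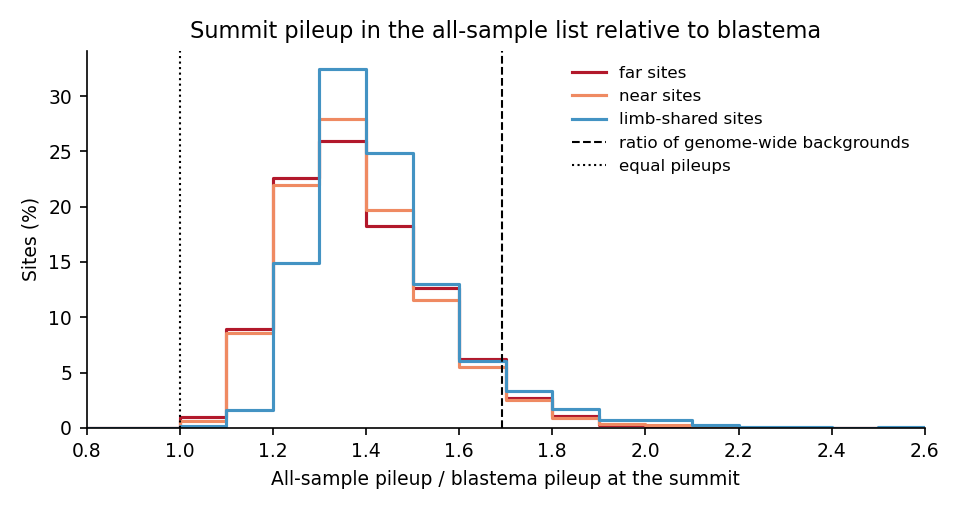
Share of sites (%) by the ratio of all-sample to blastema pileup at the summit, in steps of 0.1, for far, near and limb-shared sites with an all-sample summit within 150 bases. The dotted line marks equal pileups and the dashed line the ratio of the genome-wide backgrounds, 1.69, and all 3 sets lie mostly between them, with medians of 1.36, 1.36 and 1.40.

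The fragments beyond blastema can be set against their own background. Far sites had a median of 10 such fragments (quartiles 7 and 13, range 0 to 37) where the all-sample background exceeded the blastema background by a median of 3.16. That is a median enrichment of 3.09 (quartiles 2.41 and 3.96), beside 4.60 (3.92 and 5.43) for the pileup over background of blastema itself at the same sites. An enrichment of at least 2 was found at 87.2% of far sites, 84.4% of near sites and 98.4% of limb-shared sites. It was 1 or lower at 96 far sites, or 0.808%, and at 0.650% of near sites. At 1158 far sites, or 9.75%, the fragments beyond blastema were more enriched than those of blastema, as they were at 11.2% of near sites and 14.4% of limb-shared sites. Near sites had a median enrichment of 2.90 beyond blastema and 4.23 in blastema, and limb-shared sites 3.95 and 5.05. Every set was chosen on blastema peaks, and far and near sites also on the lack of a limb call. The rule thus favours a higher enrichment in blastema, so that direction is no independent result.

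For equal blastema pileups of 20 to 39, the enrichment beyond blastema was 3.09 at far, 2.99 at near and 4.40 at limb-shared sites. If fragments add up over libraries, the difference of summit pileups is an upper limit at the blastema summit and a lower limit at the all-sample summit. Their source is not resolved by the lists. The lowest all-sample background exceeded that of blastema by 1.73, while those of the limb lists summed to 0.904, and the reason for this gap was not tested. Whether the further fragments came from limb cells was not tested.

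The 8 far sites of highest fold had ratios from 1.18 to 1.36, and the fragments beyond blastema were enriched there too. At the 4p site the all-sample pileup was 55 and the blastema pileup 46, a ratio of 1.20. The 9 further fragments were 5.21 times their background, against 18.4 times in blastema. Over the 8 sites this enrichment ran from 3.47 at the 7p site to 9.33 at the 1q site, all above the median of the far sites. The sites were ranked on pileup over background, and low backgrounds enter this enrichment too, so that place is no independent result. At the 7p site the pileups were 40 and 34, at the third site, on 1p segment 1, 43 and 36, and at the second, on 7q, 46 and 36. By fold class, the median ratio was 1.39 at the 1034 far sites with a fold under 3 and 1.32 at the 132 with a fold of at least 7.

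The limb lists had less depth than the blastema list, so the calls expected at their depth were counted under a simple model. Each blastema summit and its background were scaled down to the depth of a limb list, at equal accessibility. The chance that the scaled summit reaches the lowest −log10 p of that list was then summed over sites. At intact depth 4089 of 15191 far sites, or 26.9%, would then be called, and at systemically activated depth 2281, or 15.0%. When depth was read from the 5th percentile of backgrounds and not from the lowest, systemically activated depth gave 3615 calls, or 23.8%. By the rule, neither list called any of them, so these sums do not show why limb calls were missing, which was not tested. The scaled summits were themselves chosen as blastema calls, so the sums can run high. Over all 43719 wide blastema peaks the same sum was 18121 calls, or 41.4%, at intact depth, while an intact peak overlapped 17907, or 41.0%. At systemically activated depth it was 26.5%, while 30.4% were overlapped. With the 5th percentile of backgrounds these sums were 43.8% at intact and 38.1% at systemically activated depth, both above the shares overlapped. At intact depth the expected share was 26.8% in near sites, close to far sites, and 59.3% in limb-shared sites. An intact peak overlapped 91.2% of limb-shared sites, which were chosen on a limb call, and by the rule no near site. The close totals over all wide peaks thus did not hold within the sets. An overlap could lie anywhere in a peak, whereas the sum is taken at summits, so expected and overlapped shares are unlike measures.

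The chance differed between single sites, and all of these values assume equal accessibility and the same share of reads in peaks, which were not measured. A chance of at least 0.5 at intact depth was reached by 1355 far sites, or 8.92%, beside 33.7% of all wide blastema peaks, and a chance of at least 0.9 by 3, beside 4.42% of all wide blastema peaks. At systemically activated depth 143 far sites, or 0.941%, reached 0.5, beside 15.2% of all wide blastema peaks. The share was 1.33% in near sites and 32.6% in limb-shared sites. The 3 sites at 0.9 or more were the 4p site (96.6%), the 1p segment 0 site (93.9%) and a site on 4q segment 2 from 355402381 to 355403544 (91.1%). The last was named after its values were seen. It had a pileup of 74 over a background of 12.4, and its limb neighbour was 170250 bases away. The 132 far sites with a fold of at least 7 had a mean chance of 68.5% at intact and 45.4% at systemically activated depth. The 1034 with a fold under 3 had 12.3% and 6.05%.

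Most far sites had no other far site within 50 kb. Whether they were more or less clustered than an even scatter was not tested. Another far site lay within 50 kb of 19.9% of them (19.3 to 20.6), and 12163 had none. When sites at most 50 kb apart were joined into runs, 1103 runs held 2 sites, 181 held 3, 38 held 4 and 12 held 5. The runs above that were 7 of 6 sites and 1 each of 7, 8 and 10 sites. Counting blastema peaks of any width, 60.5% of far sites had another within 50 kb of their edge, against 90.3% of near sites and 69.2% of limb-shared sites. Median distance to the next blastema peak was 31.5 kb for far sites, 9.42 kb for near sites and 20.0 kb for limb-shared sites. Narrow far peaks, the set with the same distance rule, had 55.3% and 39.5 kb. Limb calls divided these sets, and limb peaks often overlap blastema peaks, so the differences between them are no independent result.

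Sites in runs were taller over a higher background, not higher in fold. The 3028 far sites in runs of 2 or more had a median pileup of 29, a median background of 6.70 and a median fold of 3.84. The 12163 that stood alone had 25, 5.60 and 3.99. The 279 in runs of 4 or more had 32, 8.06 and 3.67, and a median of 5 other blastema peaks within 50 kb, against 1 for sites alone. These counts include the other far sites that define a run, so that difference follows in part from the definition. A fold of at least 5 was found in 9.68% of sites in runs of 4 or more and 13.7% of those alone.

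The largest run held 10 far sites over 167 kb of arm 13q, from 438641536 to 438808826. Between its ends lay 21 blastema peaks, 11 of which were under 500 bases wide, and 28 all-sample peaks. Pileups of the 10 sites ran from 15 to 70 with a median of 37, and folds from 2.91 to 6.53. The strongest by fold, from 438654300 to 438655331, had 48 fragments over a background of 6.50. The tallest, from 438679961 to 438681330, had 70 fragments over 19.7 and a fold of 3.44. The run began at 438641536 with a site of 24 fragments and ended with one of 40. All 10 lay 245226 to 411859 bases from the nearest limb peak, in a limb-free stretch of 2.11 Mb. All-sample pileups were 1.08 to 1.60 times those of blastema, and the expected number of intact calls among the 10 was 3.30.

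**Figure D4:**
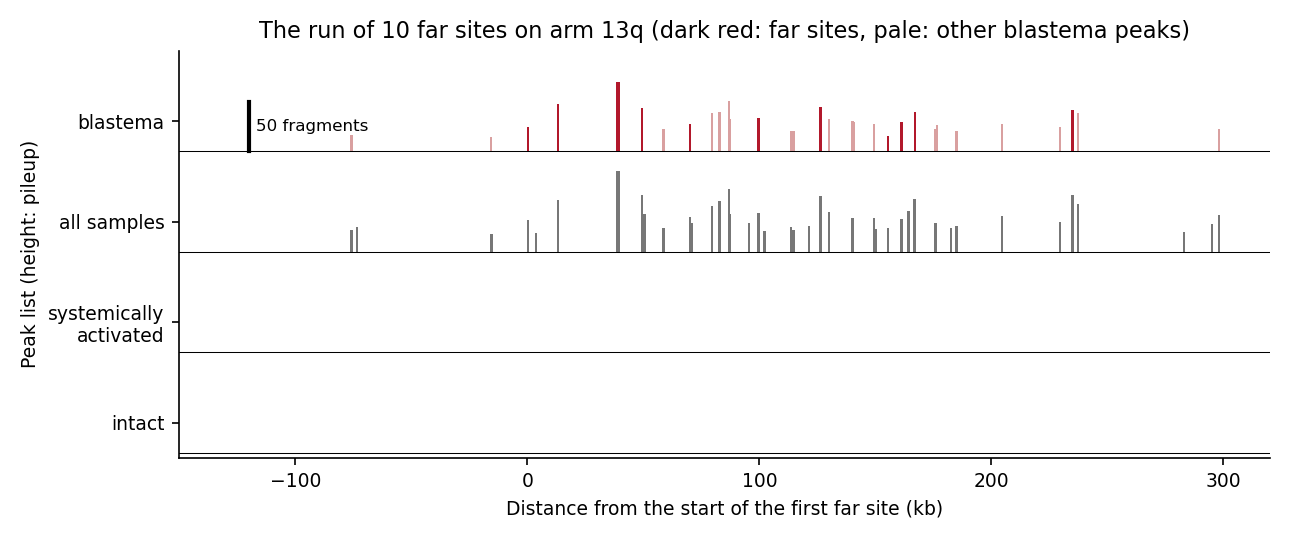
Peaks of each list around the run of 10 far sites on arm 13q, by distance in kb from the start of the first site, with bar height as summit pileup (scale bar 50 fragments) and bars drawn at least 1 kb wide. Dark red bars are the 11 far sites in the window, pale bars are other blastema peaks, and both limb rows are empty.

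The second run held 8 far sites over 161 kb of 8q segment 0, from 243089279 to 243249983. It was more even, with pileups of 32 to 57, backgrounds of 10.3 to 16.2 and folds of 2.51 to 3.38. The first site, from 243089279 to 243090003, was also the strongest, with 57 fragments, and the last, from 243249339 to 243249983, had 53. Another 4 blastema peaks, all narrower, lay between them. The nearest limb peak was 224652 to 384632 bases away, and 7 of the 8 sites had an all-sample summit within 150 bases, at 1.28 to 1.45 times the blastema pileup.

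Limb-free gaps, the stretches between neighbouring limb peaks, differed widely in what they held. Their usable length is the part at least 100 kb from a limb peak. Of 18452 gaps long enough to hold a far site, 7675, or 41.6%, held at least 1, and 4082 held exactly 1. The 500 gaps with 5 or more held 3177 far sites, 20.9% of all. Longer gaps were sparser: far sites numbered 169 per 100 Mb of usable length in gaps under 0.5 Mb and 129 in gaps of 0.5 to 1 Mb. There were 94.0 in gaps of 1 to 2 Mb, 58.5 in gaps of 2 to 5 Mb and 23.4 in longer ones. The share of gaps that held no far site fell with length, from 82.8% of those under 0.5 Mb to 29.7% of the 745 gaps of 5 Mb or more. The most in any gap was 16, in a gap of 4.77 Mb on 3p segment 0 and in a gap of 1.94 Mb on 8q segment 1 from 346035502 to 347970821. The 3p gap had 3.50 far sites per usable Mb and the 8q gap 9.22.

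The nearest limb peak was an intact one for 70.9% of far sites (70.2 to 71.7), a systemically activated one for 28.7%, and both at the same distance for 57 sites. Intact peaks made up 59.9% of all limb peaks on arms, where a place called in both limb lists counts in each. Length and depth set the limb lists apart, so these shares do not compare the tissues.

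Every chromosome arm carried far sites, at densities that followed those of limb peaks. The counts ran from 126 on 14p to 1100 on 3q. Per 100 Mb of far territory, the median over 28 arms was 69.1, the highest was 113 on 13q, and the lowest was 49.1 on 7q. Both arms of chromosome 13 led, with 105 on 13p, followed by 98.5 on 11p. Limb peaks per 100 Mb of arm were also highest on 13q, at 287, and lowest on 5p, at 99.1. Limb peaks are entries of both limb lists, so a place called in both lists counts in each. Across the 28 arms Spearman's rho between far-site density and limb-peak density was 0.96. For all wide blastema peaks per 100 Mb of arm it was 0.99, so the relation was not particular to far sites. The arms share libraries, depth and alignment, so this is a description.

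The share of wide blastema peaks that were far sites ran the other way, with 26.8% on 13q and 40.8% on 5p. Far territory made up 72.6% of 13q and 89.0% of 5p. Strength differed little between arms, with median folds of 3.82 on 3q to 4.25 on 14p.

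**Figure D5:**
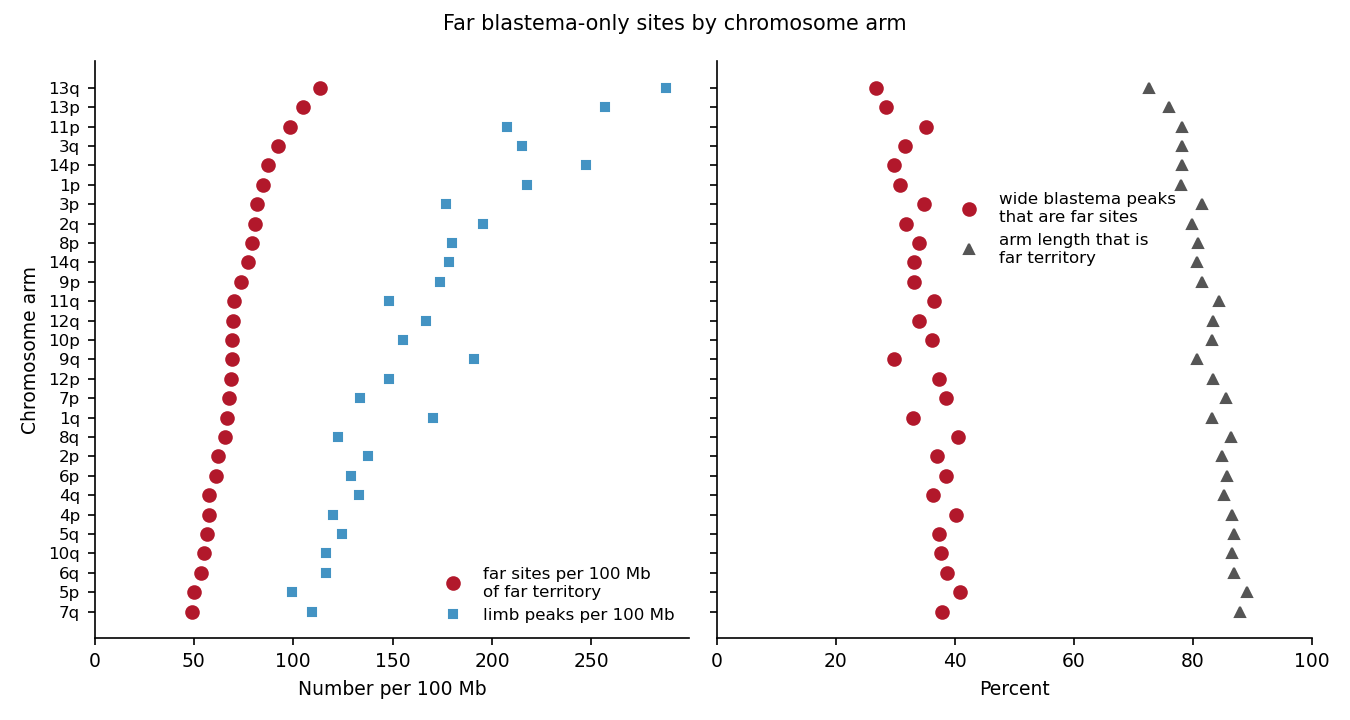
Left, far sites per 100 Mb of far territory (circles) and limb peaks per 100 Mb (squares) on each of 28 chromosome arms, ordered by the first. Limb peaks are entries of both limb lists. Right, the share of wide blastema peaks that are far sites (circles) and the share of arm length at least 100 kb from a limb peak (triangles), in percent. Arm 13q has 113 far sites and 287 limb peaks per 100 Mb, and the lowest share of far sites, 26.8%.

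Far sites were less concentrated in the outermost stretch of the p arm start and the q arm end than near and limb-shared sites. With each arm cut by position into 10 parts of equal length, 14.3% of far sites on p arms fell in the first part and 8.17% in the last. Near sites had 20.3% and 6.74%, and limb-shared sites 17.7% and 8.64%. On q arms the last part held 15.3% of far sites and the first 9.14%. Near sites had 26.1% and 7.94% there, and limb-shared sites 21.9% and 9.13%. The first 20 Mb of p arms, 2.37% of their length, held 2.85% of their far sites (2.47 to 3.28), and the first 20 Mb of q arms, 1.88% of length, held 1.44% (1.20 to 1.72). Near sites had 3.79% and 1.13% in these stretches, and limb-shared sites 4.44% and 1.50%. The rule itself favours stretches with few limb peaks, and its part in these differences was not tested.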

How the data were processed

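Per the submitters' processing notes, Bowtie2 2.3.2 and MACS2 were used for alignment and peak calling. For the version of MACS2, the genome build, duplicates and Tn5 shifting, the sources used here give nothing. The authors pooled the samples of a group into 1 list, as the labels assign them. Per peak, the authors deposited a score (not used), a fold (a ratio of summit pileup to background), and −log10 p and −log10 q values. These move with depth and were used within a list only.

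Pileup and background were solved from fold and −log10 p with the MACS2 formulas (tolerance 0.001), which gave a whole pileup for 100% of peaks. Overlap meant at least 1 base, and distances ran edge to edge within a sequence. Positions are 1-based within segments of arms. The functions were tested on simulated data. Shares have exact (Clopper-Pearson) 95% intervals, counting error only. Python 3.11.15, numpy 2.4.6, pandas 2.3.3 and scipy 1.17.1 were used.

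A gene table of another assembly was not used: of 14 arms shared by name, 1 had peaks beyond its last gene. Named sites were the 8 of highest fold, the 5 farthest, the 5 widest, the first, last and strongest sites of the 2 largest runs, and 3 sites on each side of each limit. The members, lists and rules were chosen with earlier results of these data known, and the enrichment of fragments beyond blastema was added after seeing the data.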

Additional observations from a re-analysis of the deposited data

How the results depend on the processing

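With a minimum width of 300 bases there were 44872 far sites (48.5% of such peaks; median fold 3.70, pileup 21 and all-sample ratio 1.38; 98.4% in the all-sample list). They lay in 12238 gaps, 39.1% had a neighbour within 50 kb, and 8744 intact and 4691 systemically activated calls were expected. With 1000 bases there were 1246 (13.3%; fold 4.14, pileup 35, ratio 1.32, 100% in the all-sample list). They lay in 1115 gaps, 4.25% had a neighbour, and 469 and 273 calls were expected. Counting only limb peaks with a −log10 q of at least 5 gave 23208 sites (53.1%; fold 4.00, pileup 28, ratio 1.38), 26.0% with a neighbour, and 7007 and 4012 expected calls. Only blastema peaks with a −log10 q of at least 5 gave a share of 29.1%, a fold of 4.24, a pileup of 30, a ratio of 1.34, 100% in the all-sample list and 15.9% with a neighbour. A minimum distance of 50 kb gave a share of 41.8%, a fold of 3.94 and 21.6% with a neighbour, and one of 200 kb a share of 25.2% and 17.7% with a neighbour. Neighbours within 20 kb and 100 kb gave 11.1% and 30.1%. With the 5th percentile of the background 3615 systemically activated calls were expected, and all-sample summits within 50 bases gave a ratio of 1.36. Where widths, distances or lists changed, other sites were counted by construction. Merging peaks within 100 bases, measuring from summits and leaving out sites near sequence ends moved no value beyond its interval or 1.5 times. The enrichment beyond blastema, 3.09, ran from 3.07 to 3.15 over 5 settings chosen after seeing the data.

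No paired analysis was possible because each group has 1 pooled list, and for the same reason no setting without 1 replicate exists. The expected calls assume that peaks take the same share of reads in each list. Low depth of the limb lists limits every statement about absence in limb.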

Other observations

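Some long limb-free stretches held no far site. The longest of these was 33.8 Mb on 5q segment 0 from 283287415 to 317049676, followed by 32.3 Mb on 8p segment 1 from 138249832 to 170592345 and 26.4 Mb on 10p segment 2 from 110298434 to 136661682. The longest limb-free stretch of all, 51.0 Mb on 7q segment 1 from 27580710 to 78575651, held 5 far sites. A stretch of 30.5 Mb on 9q segment 1 held 12, or 0.395 per usable Mb. How many of their bases are unsequenced or cannot be mapped was not measured here.

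The far site of highest pileup was also the one of highest background. It lay on 3q segment 3 from 217621571 to 217622283, with 87 fragments over a background of 41.0 and a fold of 2.10, and was named after its values were seen. The all-sample list had 124 fragments there over a background of 61.0. The 8 far sites that no all-sample peak overlapped had a median fold of 3.27 and a median pileup of 17.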
